A study of Mus musculus with 16 samples.

Results

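The genes described here are 10 named target genes of the Wnt/β-catenin pathway, *Axin2*, *Rnf43*, *Znrf3*, *Lgr5*, *Ascl2*, *Sox9*, *Ephb2*, *Ephb3*, *Cd44* and *Myc*, read in sorted Paneth cells of mouse small intestine. They were chosen by name as known targets, with earlier results of these data known. The count table lists 55414 genes, 11809 of which had enough counts to be tested, and all 10 target genes were among them. The libraries came from C57BL/6J mice injected with PBS (the vehicle) or DEX, followed after 1 h by PBS or TNF (tumour necrosis factor). The sources used here do not spell out DEX, which commonly stands for the glucocorticoid dexamethasone. Sampling was 3 h after the later injection, and the age of the mice and the sex behind each library are not given in the sources used here (the methods say that both sexes were used in the collection of datasets). The 4 groups of 4 libraries are named by both injections in order: PBS+PBS and PBS+TNF without DEX, and DEX+PBS and DEX+TNF with it. All mice were injected on both occasions, so PBS+PBS is a vehicle control and not an untreated one. The study describes its sequenced samples as coming from individual mice, while the labels name no animal for a library.

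In the Wnt/β-catenin pathway, a Wnt ligand binds a Frizzled receptor and an LRP co-receptor at the cell surface, which stops the destruction complex (APC, AXIN, GSK3 and casein kinase 1) from marking β-catenin for degradation. β-catenin then enters the nucleus and switches on target genes together with TCF/LEF factors. In the intestinal crypt the pathway keeps stem cells in their undifferentiated state, and the same pathway drives Paneth cell maturation. Paneth cells are themselves a source of Wnt3 for the neighbouring stem cells. Several of the target genes are therefore read in both cell types, and *Lgr5* and *Ascl2* are used as stem cell markers.

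The sorted cells carried the RNA of Paneth cells in every library. The 9 Paneth cell markers fixed for this work, among them *Lyz1*, *Mmp7* and *Defa24*, together took between 432000 and 657300 plain CPM (each gene's counts over the library total, without further scaling) in each library. Markers of other epithelial cells were read as well, while the paper describes the sorted cells as nearly pure Paneth cells. In bulk libraries, RNA of other cells and expression of these markers in Paneth cells cannot be told apart. The 7 goblet cell markers summed to 3281 to 10380 plain CPM and the 7 tuft cell markers to 0.25 to 946, the highest in DEX+TNF 4. The 9 stem cell markers that are not among the target genes (led by *Olfm4*) summed to 302 to 2514 plain CPM, with none of them at 0 in all libraries, and the 14 cell cycle markers summed to 58.5 to 455 plain CPM. Immune markers summed to 25.7 to 106 plain CPM, with 6 of 12 at 0 in all libraries, the T cell markers *Cd3e* and *Cd8a* among them, and stromal markers summed to at most 1.49 plain CPM. Library totals ran from 7286307 to 15832111 counts.

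Several libraries stood apart in ways that touch the target genes. The libraries DEX+TNF 3 and DEX+TNF 4 differed from DEX+TNF 1 and DEX+TNF 2 at genes that TNF induces. *Nfkbia*, an NF-kB target that encodes the inhibitor IκBα, had 277 to 337 normalized CPM (CPM scaled by trimmed mean of M-values, TMM, factors) in the 4 PBS+TNF libraries. It had 330 and 382 normalized CPM in DEX+TNF 1 and 2, but 28.3 and 41.0 in DEX+TNF 3 and 4, where the DEX+PBS libraries had 19.5 to 27.3. Tests on the DEX+TNF group are therefore given with all libraries and, for some of the genes, also without these 2 libraries. This alternative was added after the values had been seen. Because these libraries were picked for low TNF-induced genes, leaving them out favours a TNF effect after DEX. The cause of their low values was not tested. DEX+TNF 4 also had the highest sums of stem cell markers (2514 plain CPM) and cell cycle markers (455 plain CPM) of all 16 libraries, 1128 plain CPM of enterocyte markers against 101 to 508 in the other libraries, and 3.33% of its counts in mitochondrial genes. In PBS+TNF and DEX+PBS it was likewise library 4 that had the highest sums, at 1719 and 1748 plain CPM for the stem cell markers and 310 and 355 for the cell cycle markers. The TMM factors of DEX+TNF 4, PBS+TNF 4 and DEX+PBS 4, which plain CPM leaves out, were 1.502, 1.444 and 1.405. PBS+PBS 4 and PBS+TNF 1 had the largest shares of alpha-defensin counts (54.5% and 59.3%) and the lowest TMM factors (0.503 and 0.418). PBS+PBS 4 was the lowest of its group at 9 of the 10 target genes, and PBS+TNF 1 at 8 of 10.

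Per exon length, *Sox9* and *Ephb3* had the highest levels of the target genes in the PBS+PBS libraries and *Cd44* the lowest. The mean was 19.9 ± 11.5 TPM (transcript abundance per exon length; SD, n = 4) for *Sox9* and 17.3 ± 11.2 for *Ephb3*. *Myc*, *Rnf43* and *Axin2* followed at 5.28 ± 2.95, 4.94 ± 2.698 and 3.85 ± 2.52 TPM. The lowest means were those of *Ephb2* (2.94 ± 1.85), *Lgr5* (2.60 ± 1.63), *Znrf3* (2.00 ± 1.24), *Ascl2* (1.58 ± 1.07) and *Cd44* (1.01 ± 0.83 TPM). The range over the 4 libraries of each gene overlapped that of its neighbours in this order. These TPM values were computed from the counts, and the alpha-defensin share of a library lowers the TPM of all other genes in it.

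**Figure D1:**
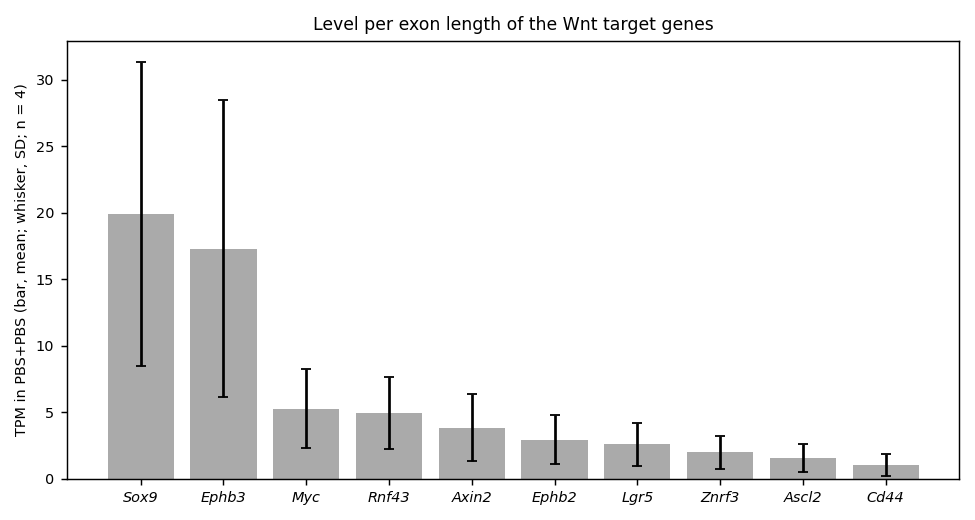
Mean level in TPM of each of the 10 Wnt target genes in the 4 PBS+PBS libraries, with the SD as whisker, on a linear axis from 0. Sox9 (19.9 TPM) and Ephb3 (17.3 TPM) stand above the other 8 genes, whose means lie between 1.01 and 5.28 TPM.

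Upstream sequence of the target genes was examined for the TCF/LEF motif. RefSeq promoter windows (GRCm38.p6; 250 bases before the transcription start) were at hand for 6 of the 10 genes, in 7 windows, and not for *Lgr5*, *Sox9*, *Znrf3* and *Myc*. The motif CTTTGAT was found on neither strand in any of the 7 windows, where 3.21% of 32851 windows hold it. Its shorter core CTTTGA was absent as well (13.8% of windows). The fixed letters of the NF-kB consensus (3 G, then any 5 bases, then 2 C), a search added later, were present on either strand in 6 of the 7 windows and in 45.8% of all windows. The windows of *Axin2*, a feedback gene that is often used to read the pathway, and of *Cd44*, the target gene called higher in PBS+TNF than in PBS+PBS, are printed 5′ to 3′ on the gene's strand, with the match to the NF-kB letters (or its reverse complement) in capitals. They lie at chr11:108920099-108920348 (plus strand) and chr2:102901666-102901915 (minus strand).
Axin2: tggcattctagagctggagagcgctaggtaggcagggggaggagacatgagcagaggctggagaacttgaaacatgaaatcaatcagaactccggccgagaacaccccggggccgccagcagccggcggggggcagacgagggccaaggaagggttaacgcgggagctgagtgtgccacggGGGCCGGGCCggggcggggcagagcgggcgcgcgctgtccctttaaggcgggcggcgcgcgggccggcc
Cd44: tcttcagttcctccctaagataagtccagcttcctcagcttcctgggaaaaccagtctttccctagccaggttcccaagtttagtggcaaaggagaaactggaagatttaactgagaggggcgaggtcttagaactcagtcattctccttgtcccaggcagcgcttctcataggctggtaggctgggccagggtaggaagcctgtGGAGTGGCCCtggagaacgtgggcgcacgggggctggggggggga
The *Axin2* window had 69.2% G and C and the *Cd44* window 56.4%, against a median of 52.4% over all windows. Those of *Ascl2*, *Ephb2* and *Ephb3* had 67.6, 68.4 and 65.6%, and those of *Rnf43* 44.4 and 45.2%. The searched letters are all G or C, so a match is likelier in windows rich in them and does not by itself mark an NF-kB site.

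PBS+TNF was set against PBS+PBS to ask what TNF does without DEX, and this contrast was the only one of the 5 contrasts in which target genes were called. *Lgr5* and *Rnf43* fell and *Cd44* rose, so that 1 target gene was called higher and 2 lower at an adjusted p under 0.05 (edgeR). Over all 11809 tested genes 12.5% were called, 7.15% higher and 5.35% lower. An unadjusted p under 0.05 was reached by 7 of the 10 target genes and by 3116 of all tested genes. The median log2 fold change was -0.36 over the 10 target genes and -0.035 over all tested genes. Higher calls were 57.2% of the 1476 calls, and 46.3% of 1612 with upper-quartile scaling. That scaling moved the median over all genes to -0.15, and the changes relative to it were -1.54 for *Lgr5*, -0.99 for *Rnf43* and 1.83 for *Cd44*. In the fit without DEX+TNF 3 and 4, 2 target genes were called higher (*Cd44* and *Sox9*) and 3 lower (*Axin2*, *Rnf43* and *Lgr5*), where 18% of all genes were called. DESeq2 called 3 target genes higher and 2 lower, beside 2061 calls over all genes.

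**Figure D2:**
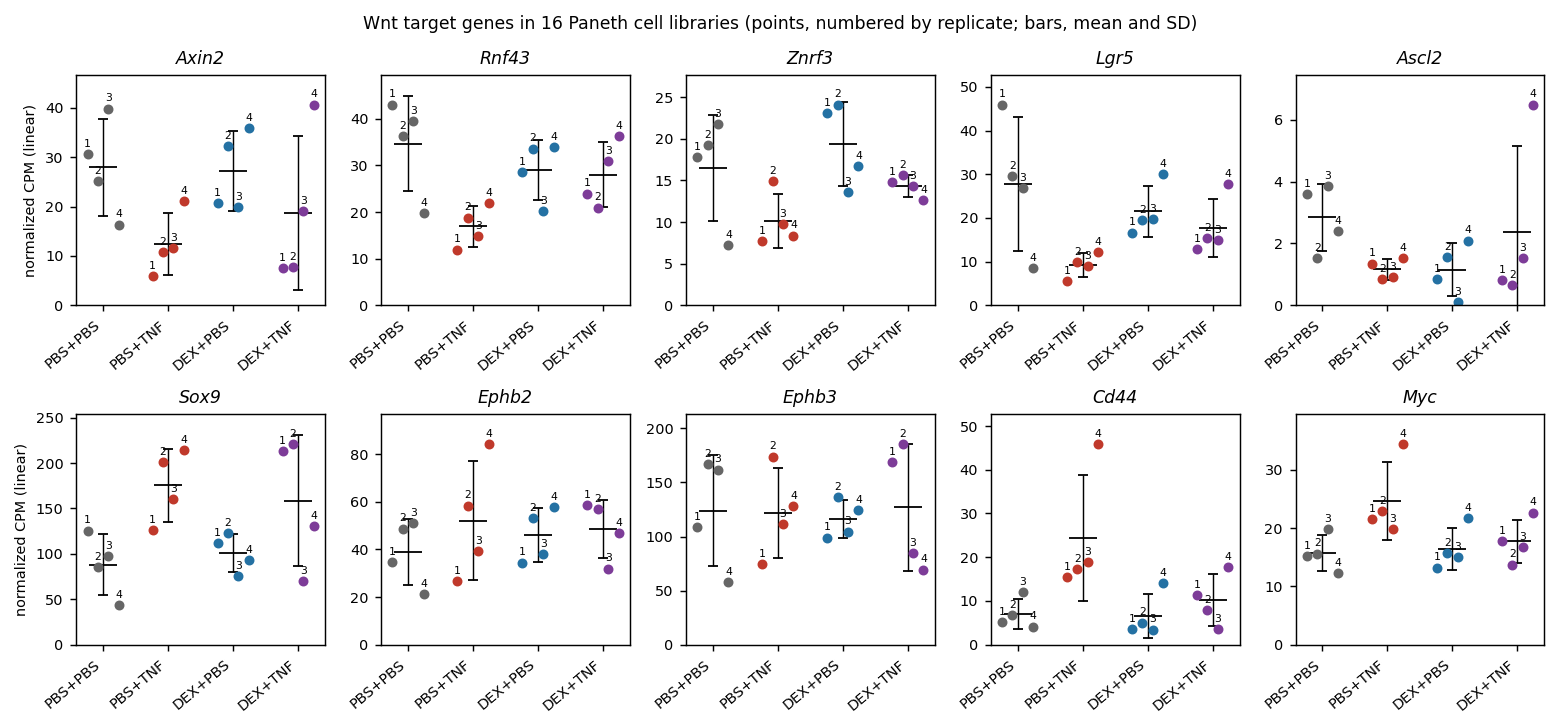
Normalized CPM (linear axis from 0) of the 10 Wnt target genes in each of the 16 libraries, by group. Points carry the replicate number, and the bars give the mean and the SD of 4 libraries, cut at 0. The PBS+TNF points of Lgr5 and Rnf43 lie low, those of Sox9, Cd44 and Myc lie above all PBS+PBS points, and Axin2 in DEX+TNF splits into libraries 1 and 2 (7.501 and 7.76) and libraries 3 and 4 (19.1 and 40.6).

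Among the feedback genes, *Axin2*, *Rnf43* and *Znrf3* encode proteins that limit Wnt signalling: a scaffold of the destruction complex and a pair of ubiquitin ligases that remove Frizzled receptors from the cell surface. *Rnf43* (ENSMUSG00000034177, GRCm39 chromosome 11, 87553548 to 87626377, plus strand) had 43.0, 36.3, 39.5 and 19.9 normalized CPM in PBS+PBS libraries 1 to 4. It had 11.9, 18.8, 14.9 and 22.0 in the PBS+TNF libraries. The groups overlapped only at PBS+PBS 4 and PBS+TNF 4. *Rnf43* was 2.04-fold lower in PBS+TNF (log2 fold change -1.03, SE 0.27, adjusted p = 0.0193, edgeR). The call held in 21 of 24 alternatives and was lost without PBS+PBS 1 (adjusted p = 0.0649), PBS+TNF 1 (0.0553) or PBS+TNF 3 (0.0604).

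*Axin2* (ENSMUSG00000000142, chromosome 11, 108811169 to 108841609, plus strand) had 30.6, 25.2, 39.8 and 16.3 normalized CPM in PBS+PBS and 5.97, 10.8, 11.7 and 21.1 in PBS+TNF. The single overlap was again between PBS+PBS 4 and PBS+TNF 4, which is the PBS+TNF library with the highest stem cell and cell cycle marker sums. The log2 fold change was -1.16 (SE 0.48) and did not pass the threshold (adjusted p = 0.128, edgeR). It passed in the fit without DEX+TNF 3 and 4 (adjusted p = 0.0238), and in none of the 24 other alternatives (adjusted p 0.0508 to 0.285). *Znrf3* (ENSMUSG00000041961, chromosome 11, 5226324 to 5394939, minus strand) had 17.8, 19.2, 21.8 and 7.29 normalized CPM in PBS+PBS and 7.71, 14.9, 9.77 and 8.37 in PBS+TNF. The 4 PBS+TNF libraries lay below 3 of the PBS+PBS libraries and above PBS+PBS 4. The difference was -0.70 (SE 0.30, adjusted p = 0.141, edgeR), and it was called only without PBS+PBS 4 (-0.92, adjusted p = 0.0196).

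The stem cell genes are *Lgr5*, a receptor for R-spondins that marks crypt base stem cells, and *Ascl2*, a transcription factor of the same cells. *Lgr5* (ENSMUSG00000020140, chromosome 10, 115286216 to 115423685, minus strand) had 45.9, 29.6, 26.9 and 8.54 normalized CPM in PBS+PBS and 5.59, 9.83, 8.999 and 12.2 in PBS+TNF. All 4 PBS+TNF libraries lay below PBS+PBS 1 to 3, and PBS+PBS 4 lay within the PBS+TNF range. *Lgr5* was 2.99-fold lower in PBS+TNF (log2 fold change -1.58, SE 0.39, adjusted p = 0.0139, edgeR). The call held in 23 of 24 alternatives and was lost without PBS+PBS 1 (-1.23, adjusted p = 0.0607). In bulk libraries, fewer cells of a type and less RNA per cell cannot be told apart.

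*Ascl2* (ENSMUSG00000009248, chromosome 7, 142520564 to 142523006, minus strand) was the target gene with the fewest counts, 460 over all libraries. It had 3.598, 1.53, 3.84 and 2.39 normalized CPM in PBS+PBS and 1.35, 0.84, 0.91 and 1.54 in PBS+TNF. The groups overlapped slightly, and the log2 fold change of -1.30 (SE 0.71) was not called (adjusted p = 0.265, edgeR).

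The stem cell markers outside the target genes were read beside these values. Of the 9, 3 were called lower in PBS+TNF and none higher. *Rgmb*, which encodes a BMP co-receptor, had 59.5 to 137 normalized CPM in PBS+PBS and 32.4 to 60.1 in PBS+TNF, overlapping only at PBS+PBS 4 and PBS+TNF 2 (log2 fold change -1.27, SE 0.26, adjusted p = 0.00507, edgeR). *Smoc2* changed by -0.80 (SE 0.21, adjusted p = 0.0207) and *Gkn3*, at 31 counts in all of PBS+TNF, by -2.46 (SE 0.79, adjusted p = 0.0493). *Olfm4*, the most abundant of the list, had 368, 546, 580 and 690 normalized CPM in the 4 PBS+PBS libraries, in order of size, and 244, 280, 455 and 761 in PBS+TNF. These groups overlapped widely (log2 fold change -0.33, SE 0.53, adjusted p = 0.762, edgeR). The sum of the 9 markers ran from 548 to 1558 plain CPM in PBS+PBS and from 302 to 1719 in PBS+TNF. Plain CPM leaves out the TMM factors. These were 0.503 in PBS+PBS 4 and 0.418 in PBS+TNF 1, with the lowest sums, and 1.44 in PBS+TNF 4, with the highest. The overlap of these sums therefore cannot be set against that of the normalized values. None of the 14 cell cycle markers was called by edgeR or by DESeq2, and none had an unadjusted p under 0.05. The part of stem cell RNA in the *Lgr5* values was not tested.

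Of the 4 genes of crypt position and identity, 1 was called higher and none lower. *Cd44* (ENSMUSG00000005087, chromosome 2, 102641486 to 102732010, minus strand), the cell surface receptor for hyaluronan, had 5.14, 6.77, 12.1 and 4.15 normalized CPM in PBS+PBS and 15.4, 17.3, 18.9 and 45.9 in PBS+TNF. The groups did not overlap. This was also so for *Sox9* and *Myc*, all 3 higher in PBS+TNF, where 19.5% of all tested genes did not overlap, 10.8% higher and 8.64% lower. *Cd44* was 3.45-fold higher in PBS+TNF (log2 fold change 1.78, SE 0.53, adjusted p = 0.0349, edgeR). PBS+TNF 4 was far above the others, and without it the log2 fold change was 1.28 (adjusted p = 0.132). The call was also lost without PBS+PBS 1, 2 or 4 (adjusted p = 0.0999, 0.0837 and 0.0747), without PBS+TNF 3 (0.0513) and with no low-count filter (0.113), and it held in 18 of 24 alternatives. Immune cells also carry *Cd44*. The 12 immune markers summed to 41.0 to 42.1 plain CPM in PBS+TNF and to 41.3 to 106 in PBS+PBS, mostly from *Lyz2*. *Ptprc*, which encodes the leukocyte antigen CD45, was at 0, 0, 3.94 and 3.91 normalized CPM in PBS+TNF 1 to 4 (0, 0, 56 and 79 counts) and at 0 to 0.85 in PBS+PBS. *Cd44* was at 15.4 and 17.3 normalized CPM in PBS+TNF 1 and 2, and at 18.9 and 45.9 in PBS+TNF 3 and 4. *Ptprc* was highest in DEX+TNF 4, at 21.0 normalized CPM (422 counts), where *Cd44* was the highest of its group. *Lyz2* was the lowest of its group there, at 20.1 normalized CPM, so the immune marker sum does not follow *Ptprc*. The 7 tuft cell markers summed to 7.24, 5.97, 84.7 and 198 plain CPM in PBS+TNF 1 to 4 and to 946 in DEX+TNF 4. In PBS+PBS they summed to 3.745 to 59.6 plain CPM. The part of immune or tuft cell RNA in the *Cd44* values of any library was not tested.

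*Sox9* (ENSMUSG00000000567, chromosome 11, 112673009 to 112678586, plus strand), a transcription factor needed for Paneth cell formation, had 126, 85.5, 97.7 and 43.8 normalized CPM in PBS+PBS and 126, 201, 160 and 214 in PBS+TNF. The lowest PBS+TNF value (126.4) was just above the highest PBS+PBS value (125.5). The log2 fold change of 0.99 (SE 0.35) did not pass the threshold in edgeR (adjusted p = 0.0740). It passed in DESeq2 (adjusted p = 0.0317), without DEX+TNF 3 (0.0347) and without both DEX+TNF 3 and 4 (0.0189).

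*Ephb2* and *Ephb3* encode EphB receptors, which position cells along the crypt through repulsion by ephrin-B ligands. *Ephb2* (ENSMUSG00000028664, chromosome 4, 136374850 to 136563351, minus strand) had 34.6, 48.8, 51.2 and 21.1 normalized CPM in PBS+PBS and 26.6, 58.4, 39.2 and 84.3 in PBS+TNF. *Ephb3* (ENSMUSG00000005958, chromosome 16, 21023495 to 21042057, plus strand) had 108, 167, 162 and 58.0 in PBS+PBS and 74.2, 174, 112 and 128 in PBS+TNF. Both pairs of groups overlapped widely. The log2 fold changes were 0.42 (SE 0.34, adjusted p = 0.477, edgeR) for *Ephb2* and -0.022 (SE 0.36, adjusted p = 0.982, edgeR) for *Ephb3*, whose sign turned under some alternatives. *Myc* (ENSMUSG00000022346, chromosome 15, 61857227 to 61862223, plus strand), a transcription factor of cell growth, had 15.3, 15.6, 19.8 and 12.3 normalized CPM in PBS+PBS and 21.6, 22.9, 19.8 and 34.5 in PBS+TNF. The groups did not overlap, by a narrow margin between PBS+PBS 3 (19.81) and PBS+TNF 3 (19.83). The log2 fold change was 0.65 (SE 0.23, adjusted p = 0.0781, edgeR), and it passed the threshold in DESeq2 (adjusted p = 0.0482).

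**Figure D3:**
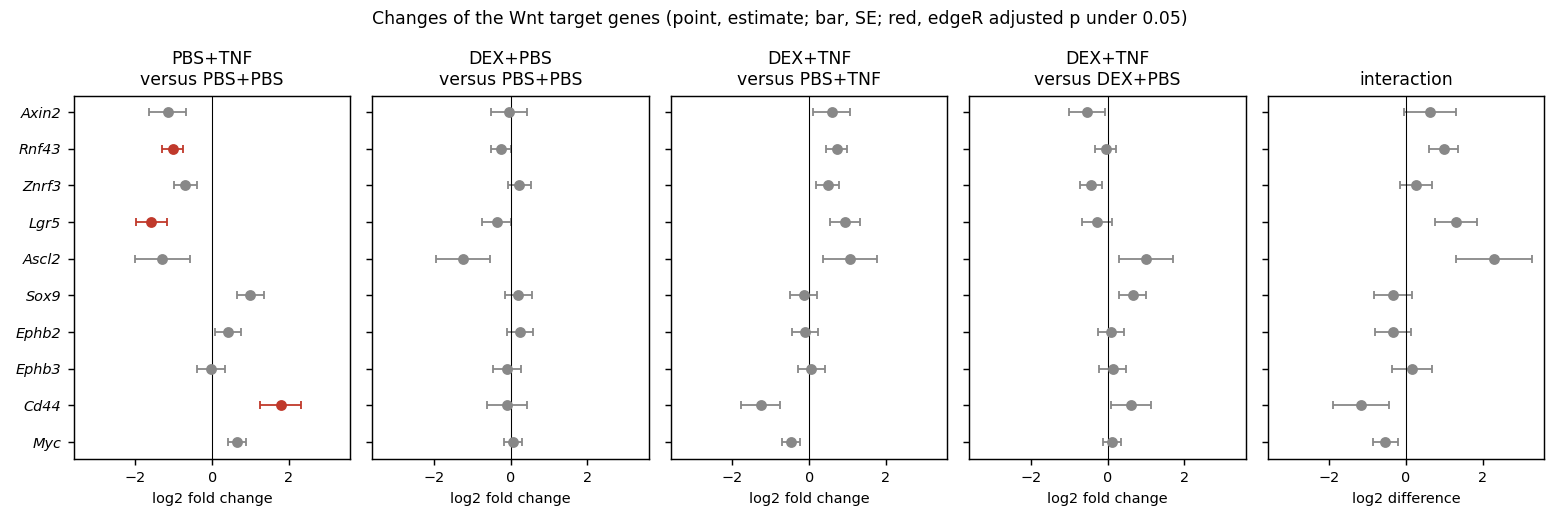
Log2 fold change (horizontal axis) with its SE for the 10 Wnt target genes in the 4 pairwise comparisons, and the log2 difference for the interaction, in which the TNF effect after PBS is subtracted from that after DEX. Red points had an adjusted p under 0.05 in edgeR, which were Rnf43 (-1.03), Lgr5 (-1.58) and Cd44 (1.78) in PBS+TNF versus PBS+PBS and no gene elsewhere.

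DEX+PBS was set against PBS+PBS to ask what DEX does on its own. No target gene was called by edgeR or DESeq2, none had an unadjusted p under 0.05, and the smallest adjusted p was 1. A single gene of the 11809 tested was called (0.00847%). Groups that did not overlap were found for none of the target genes and for 1.88% of all tested genes (0.999% higher and 0.881% lower). *Axin2* had 20.8, 32.3, 19.8 and 35.9 normalized CPM in the DEX+PBS libraries and *Rnf43* 28.5, 33.6, 20.2 and 34.0, both within the PBS+PBS range. *Lgr5* had 16.6, 19.5, 19.8 and 30.03, which lay inside the PBS+PBS range. The largest estimate was that of *Ascl2* (0.85, 1.57, 0.11 and 2.09 normalized CPM, log2 fold change -1.23, SE 0.70, adjusted p = 1, edgeR), whose 4 libraries held 1 to 41 counts each. The other 9 target genes had log2 fold changes between -0.37 and 0.24. The highest *Cd44* value of the group, 14.1 against 3.44 to 5.06 normalized CPM in the others, was that of DEX+PBS 4, the library with the highest stem cell and cell cycle marker sums in its group.

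DEX+TNF was compared with PBS+TNF to ask what DEX changes in mice that received TNF. No target gene was called by edgeR or DESeq2, where edgeR called 0.339% of all tested genes (0.22% higher and 0.119% lower). The smallest adjusted p was 0.285. An unadjusted p under 0.05 was reached by 3 target genes, *Rnf43*, *Lgr5* and *Cd44*, and by 1408 of all tested genes. *Lgr5* had 12.9, 15.4, 14.9 and 27.7 normalized CPM in DEX+TNF, all above the 5.59 to 12.2 of PBS+TNF. It was the only target gene without overlap here, where 6.38% of all tested genes did not overlap (3.47% higher and 2.91% lower). The *Lgr5* difference was 0.94 (SE 0.39, adjusted p = 0.337, edgeR), and 0.60 without DEX+TNF 3 and 4. *Rnf43* had 24.0, 20.9, 30.8 and 36.4 normalized CPM in DEX+TNF, with 20.9 below the highest PBS+TNF value of 22.0 (log2 fold change 0.72, SE 0.27, adjusted p = 0.285, edgeR). Without DEX+TNF 3 and 4 its difference was 0.40 (SE 0.31, adjusted p = 0.614). *Cd44* had 11.3, 7.92, 3.57 and 17.7, and its estimate was -1.27 (SE 0.52, adjusted p = 0.334, edgeR), and -1.35 (SE 0.60, adjusted p = 0.493) without those libraries.

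The estimates for *Axin2* and *Ascl2* in this comparison rested on DEX+TNF 4. *Axin2* had 7.501 and 7.76 normalized CPM in DEX+TNF 1 and 2, inside the PBS+TNF range of 5.97 to 21.1, and 19.1 and 40.6 in DEX+TNF 3 and 4. Its log2 fold change was 0.59 (SE 0.48, adjusted p = 0.676, edgeR) with all libraries, -0.13 (0.966) without DEX+TNF 4 and -0.72 (0.555) without both. *Ascl2* had 0.81, 0.65, 1.53 and 6.48 normalized CPM, the last from 130 counts in DEX+TNF 4. Its log2 fold change of 1.06 (SE 0.71, adjusted p = 0.596, edgeR) became -0.22 (0.961) without that library. DEX+TNF 4 had 2514 plain CPM of the 9 stem cell markers, against 653 to 805 in the other DEX+TNF libraries. None of the 9 was called by edgeR in this comparison, and 1 was called higher by DESeq2. An unadjusted p under 0.05 was reached by 4 of them, all higher in DEX+TNF, and by 1408 of all tested genes. These were *Igfbp4*, *Gkn3*, *Rgmb* and *Smoc2*. *Rgmb* (log2 fold change 1.01, adjusted p = 0.105, edgeR) and *Smoc2* (0.54, 0.319) did not overlap with PBS+TNF. *Cdca7* was lower (-0.19). The part of stem cell RNA in the *Axin2*, *Lgr5* and *Ascl2* values was not tested.

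DEX+TNF was set against DEX+PBS to ask what TNF does after DEX. No target gene was called by edgeR or DESeq2 and none had an unadjusted p under 0.05 (smallest adjusted p 0.554), where edgeR called 0.339% of all tested genes (0.322% higher and 0.0169% lower). Of the 40 edgeR calls 38 were higher, and 84.6% of 259 in DESeq2. This changed without DEX+TNF 3 and 4. In that fit 10.9% of all tested genes were called, and among the target genes *Axin2* was lower (log2 fold change -1.84, adjusted p = 0.0143) and *Sox9* higher (1.11, adjusted p = 0.0376). That fit also called 3 of 5 tested tuft cell markers, 2 of 14 cell cycle markers and 1 of 9 stem cell markers lower, and none of these higher. It kept DEX+TNF 1 and 2, the closest pair of libraries within any group, and left out those with low TNF-induced genes. The part of other cells' RNA in the *Axin2* difference was not tested. *Axin2* in DEX+TNF 1 and 2 lay below all DEX+PBS libraries (19.8 to 35.9 normalized CPM). *Sox9* had 213 and 221 normalized CPM in DEX+TNF 1 and 2, against 69.7 and 130 in DEX+TNF 3 and 4 and 75.6 to 123 in DEX+PBS. With all 4 libraries the estimates were -0.53 (SE 0.47, adjusted p = 0.799, edgeR) for *Axin2* and 0.65 (SE 0.35, adjusted p = 0.554, edgeR) for *Sox9*. For *Lgr5* and *Rnf43*, the fit without these libraries gave -0.61 (adjusted p = 0.443) and -0.38 (adjusted p = 0.492).

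With all libraries, every target gene overlapped between DEX+TNF and DEX+PBS, where 4.68% of all tested genes did not (2.06% higher and 2.63% lower). *Znrf3* had 12.6 to 15.7 normalized CPM in DEX+TNF and 13.6 to 24.1 in DEX+PBS, and *Myc* 13.7 to 22.7 and 13.2 to 21.7. *Ephb2* had 32.0 to 58.6 and 34.5 to 57.8, and *Ephb3* 69.4 to 186 and 99.0 to 136. In *Ephb3*, as in *Sox9*, DEX+TNF 1 and 2 (169 and 186) were high and DEX+TNF 3 and 4 (84.4 and 69.4) low.

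The interaction tests directly whether the TNF effect differed after DEX and after PBS. No target gene and none of the 11809 tested genes was called (0%), with DESeq2 calling 9 genes and no target gene, and 3 target genes against 642 of all genes had an unadjusted p under 0.05. These were *Rnf43* (difference 0.97, SE 0.38, adjusted p = 0.8503, edgeR), *Lgr5* (1.30, SE 0.54, adjusted p = 0.884) and *Ascl2* (2.30, SE 0.99, adjusted p = 0.884). Without DEX+TNF 3 and 4 these differences were 0.65, 0.97 and 0.56 (adjusted p 0.971 to 0.973), and that of *Axin2* turned from 0.63 to -0.68. A difference between the TNF effects with and without DEX was thus not called for any target gene. Of the 9 stem cell markers none was called for the interaction, and 4 had an unadjusted p under 0.05.

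**Figure D4:**
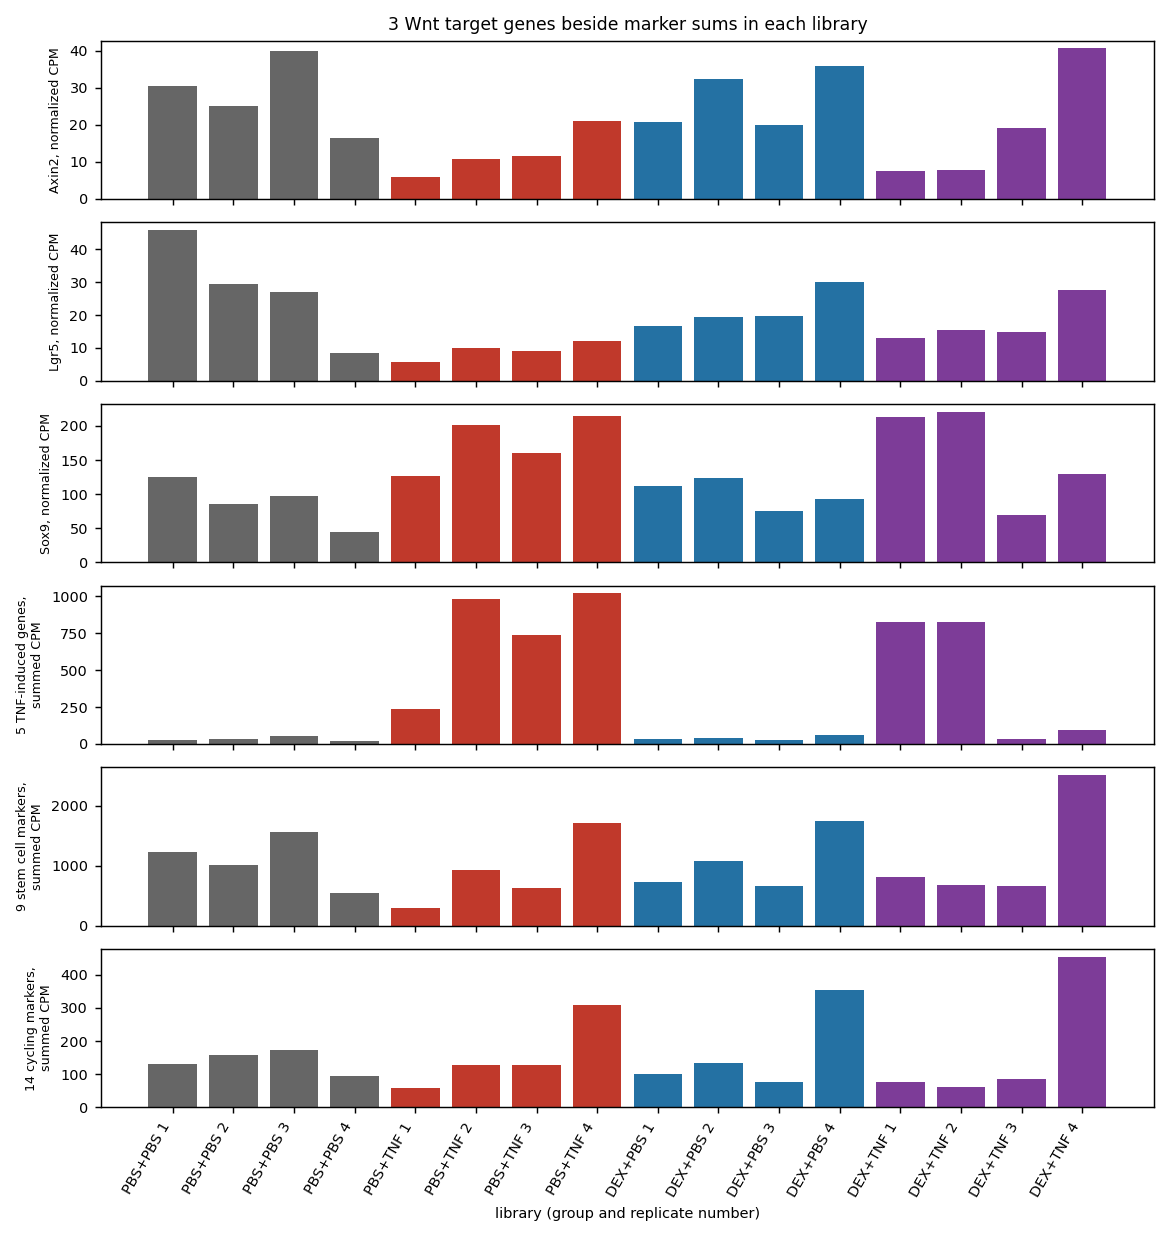
Bars from 0 for each of the 16 libraries: normalized CPM of Axin2, Lgr5 and Sox9, and summed plain CPM of the 5 TNF-induced genes (Nfkbia, Tnfaip3, Icam1, Cxcl1 and Birc3), of 9 stem cell markers and of 14 cell cycle markers. The TNF-induced genes sum to 238 to 1020 in PBS+TNF and to 825 and 826 in DEX+TNF 1 and 2, but to 31.9 and 93.6 in DEX+TNF 3 and 4. DEX+TNF 4 has the highest stem cell marker sum (2514) and the highest Axin2 level (40.6).

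The rest of the pathway was read from 75 further genes in 6 lists, 58 of which were tested. In PBS+TNF versus PBS+PBS, 3 of them were called higher and 11 lower, 24.1% of those tested against 12.5% of all genes. The genes called lower were targets, ligands, receptors, nuclear regulators and a secreted inhibitor, and the 3 called higher were all from the destruction complex list. With DESeq2 5 were called higher and 15 lower, beside 2061 calls over all genes (55.6% of them higher). Without DEX+TNF 3 and 4 the counts were 5 and 13, where 18% of all genes were called.

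Among the other targets, 3 of 10 tested genes were called lower and none higher, with a median log2 fold change of -1.40 over the 10. *Nkd1*, a feedback inhibitor that binds Dishevelled, had 24.1, 34.3, 25.6 and 12.6 normalized CPM in PBS+PBS and 1.54, 5.61, 4.64 and 5.05 in PBS+TNF. The groups lay far apart, with the lowest control above the highest PBS+TNF library, and *Nkd1* was 5.54-fold lower (log2 fold change -2.47, SE 0.38, adjusted p = 0.00117, edgeR), a call held in all 24 alternatives. *Notum*, a secreted enzyme that inactivates Wnt ligands, had 89 counts in PBS+PBS and 6 in PBS+TNF, all 6 of them in PBS+TNF 2 (adjusted p = 0.0143, edgeR). *Tcf7*, a TCF/LEF factor, had 6.66 to 14.1 normalized CPM in PBS+PBS and 3.85 to 7.60 in PBS+TNF (2.14-fold lower, SE of the log2 fold change 0.28, adjusted p = 0.0163, edgeR), and its call was lost without PBS+PBS 1 (0.0510) or PBS+TNF 3 (0.0578).

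With all libraries, *Nkd1* was also the only Wnt pathway gene that edgeR called in any other contrast, DEX+TNF versus PBS+TNF. DESeq2 called 4 of the 58 higher there, beside 274 calls over all genes. *Nkd1* had 60.2, 43.6, 41.5 and 26.9 normalized CPM in DEX+PBS and 10.6, 14.1, 22.4 and 23.5 in DEX+TNF. All DEX+TNF libraries lay above all PBS+TNF libraries, and the difference was 4.03-fold (log2 fold change 2.01, SE 0.38, adjusted p = 0.0295, edgeR). The call was lost without any single PBS+TNF library (adjusted p 0.0675 to 0.107), without DEX+TNF 3 (0.0785) or DEX+TNF 4 (0.106), without both (log2 fold change 1.48, adjusted p = 0.304) and with only the libraries of these groups (0.127). The interaction for *Nkd1* was 1.18 (SE 0.51, adjusted p = 0.884, edgeR). In DEX+PBS versus PBS+PBS 0 of the 58 tested genes were called by either tool. An unadjusted p under 0.05 was reached by 3 of them and by 224 of all tested genes. In DEX+TNF versus DEX+PBS none was called by edgeR with all libraries and 2 were called lower by DESeq2, which called 259 over all genes. In this edgeR fit 10 had an unadjusted p under 0.05, against 1227 of all tested genes. *Nkd1* did not overlap between these groups (log2 fold change -1.28, SE 0.36, adjusted p = 0.149, edgeR). Without DEX+TNF 3 and 4, edgeR called 4 of the 58 higher and 4 lower, where 10.9% of all tested genes were called. *Nkd1* was then called lower (log2 fold change -1.80, SE 0.44, adjusted p = 0.0141). For the interaction none of the 58 was called by either tool and 4 had an unadjusted p under 0.05 (642 of all tested genes).

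Of the ligands and their secretion factors, 4 of 11 genes were tested and 2 were called lower in PBS+TNF. *Wnt3*, the Paneth cell ligand, had 124, 136, 115 and 102 normalized CPM in PBS+PBS and 47.0, 60.9, 55.4 and 65.2 in PBS+TNF. The groups did not overlap, and *Wnt3* was 2.08-fold lower (log2 fold change -1.06, SE 0.21, adjusted p = 0.00465, edgeR), in all 24 alternatives. In DEX+TNF it had 100, 113, 95.6 and 69.0 normalized CPM, above all PBS+TNF libraries (log2 fold change 0.72, SE 0.21, adjusted p = 0.157, edgeR, and 0.90, SE 0.22, adjusted p = 0.258, without DEX+TNF 3 and 4). *Wnt5a*, a ligand of β-catenin-independent signalling, had 96 counts in PBS+PBS and 5 in PBS+TNF (adjusted p = 0.0104, edgeR), and its fold is not given because so few counts do not fix it.

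Of 14 receptor genes, all tested, 3 were called lower and none higher, while the median over the list was -0.13. *Lgr4*, the R-spondin receptor related to *Lgr5* and not confined to stem cells, had 300, 289, 298 and 140 normalized CPM in PBS+PBS and 69.0, 104, 85.8 and 83.7 in PBS+TNF. The groups did not overlap, and the 3.00-fold difference (log2 fold change -1.58, SE 0.28, adjusted p = 0.00206, edgeR) held in all 24 alternatives. *Fzd9*, a Frizzled receptor, had 43.8 to 64.3 normalized CPM in PBS+PBS and 5.39 to 19.3 in PBS+TNF (log2 fold change -2.17, SE 0.32, adjusted p = 0.000945, edgeR), in all 24 alternatives. *Ryk*, a Wnt co-receptor, changed by -0.86 (SE 0.23, adjusted p = 0.0195, edgeR), a call lost without PBS+PBS 1 (0.0739), without PBS+TNF 3 (0.0608) and with only the libraries of both groups (0.0524).

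In the destruction complex list, 3 of 15 genes were called higher and none lower (median 0.24). *Apc*, the scaffold that is lost in many intestinal tumours, had 44.3, 28.3, 41.8 and 28.9 normalized CPM in PBS+PBS and 119, 129, 78.7 and 83.9 in PBS+TNF. It was 2.86-fold higher without overlap (log2 fold change 1.52, SE 0.34, adjusted p = 0.00828, edgeR), in all 24 alternatives. *Apc* had 100 and 106 normalized CPM in DEX+TNF 1 and 2 and 35.1 and 44.3 in DEX+TNF 3 and 4, the same split as at *Nfkbia*. Its TNF effect after DEX was 0.90 (SE 0.34, adjusted p = 0.306, edgeR) with all libraries and 1.43 (SE 0.28, adjusted p = 0.00312) without DEX+TNF 3 and 4. *Fbxw11*, which encodes a β-TrCP subunit of the ligase that marks β-catenin, rose by 1.099 (SE 0.25, adjusted p = 0.00840, edgeR), in all 24 alternatives. *Amer1*, an APC-binding protein, rose by 0.79 (SE 0.25, adjusted p = 0.0450, edgeR), but this call held in only 11 of 24 alternatives. It was lost without any single library of either group, without DEX+PBS 1, 3 or 4, with upper-quartile factors and with no low-count filter (adjusted p up to 0.124).

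Of 13 tested nuclear genes, 2 were called lower and none higher (median -0.043). *Ctnnbip1*, an inhibitor of the β-catenin and TCF contact, had 16.5 to 20.0 normalized CPM in PBS+PBS and 7.51 to 9.42 in PBS+TNF (log2 fold change -1.11, SE 0.27, adjusted p = 0.0118, edgeR), in all 24 alternatives. *Tle1*, a Groucho co-repressor, changed by -0.67 (SE 0.20, adjusted p = 0.0364, edgeR), with 17 of 24 alternatives keeping the call. It was lost without PBS+PBS 2 or 3, without PBS+TNF 1, 3 or 4, with no low-count filter and with only the libraries of both groups (adjusted p up to 0.119). Of 2 tested secreted inhibitors, *Dkk3*, a Dickkopf family member, was lower (16.3 ± 5.41 normalized CPM in PBS+PBS and 5.01 ± 2.45 in PBS+TNF, SD, n = 4, log2 fold change -1.67, SE 0.38, adjusted p = 0.00899, edgeR), in all 24 alternatives.

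**Figure D5:**
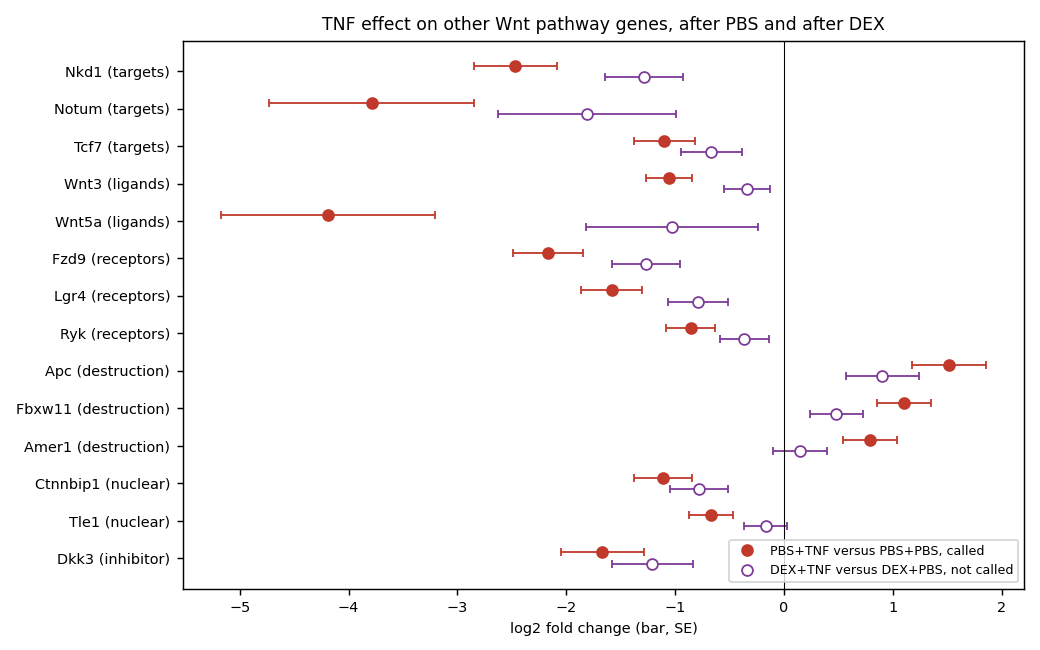
Log2 fold change with its SE, from the fit of all libraries, for the 14 called genes of the other Wnt pathway lists. Shown are TNF after PBS (PBS+TNF versus PBS+PBS, filled points, all called) and TNF after DEX (DEX+TNF versus DEX+PBS, open points, none called). Nkd1 is at -2.47 after PBS and -1.28 after DEX, and Apc at 1.52 and 0.90; the difference between the series was not called for any gene.

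The target genes fell into patterns that were not shared by all of them over the 16 libraries. The Pearson correlation of log2 CPM with *Lgr5* was 0.910 for *Rnf43*, 0.788 for *Axin2* and 0.686 for *Znrf3*, but 0.375 for *Ascl2* and -0.151 for *Sox9*. *Sox9* was closest to *Ephb2* (0.683), *Cd44* (0.633) and *Ephb3* (0.578) among the target genes, and its correlation with *Axin2* was -0.402. Among the 7817 genes that averaged 5 CPM or more, those most like *Lgr5* were *Tyw1* (0.931), *Ttyh2* (0.931) and *Eif4b* (0.926). Those most like *Axin2* were *Prelp* (0.949), *Fam234b* (0.949) and *Gstm1* (0.944), and those most like *Sox9* were *Stk35* (0.961), *Ppm1h* (0.956) and *Nhsl3* (0.952). These values are descriptions over 16 libraries that share group effects, alpha-defensin share and depth.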

How the data were processed

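RNA of sorted Paneth cells was read in 16 libraries, 4 per group, and groups and replicate numbers came from the labels. The deposited values are raw read counts per Ensembl gene, made by the authors with STAR (2.7.10a in the submitters' processing notes) on GRCm39 with the GENCODE M30 annotation, from libraries of a stranded mRNA kit. The program that counted reads, its handling of reads with several matches and its use of strand are not given in the sources used here; genes that overlap the 10 target genes held 0 to 32 counts where the table lists them. GENCODE M39 on GRCm39 supplied gene names, coordinates and exon lengths (54749 of 55414 identifiers matched).

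Genes were filtered with filterByExpr and scaled with TMM factors (0.418 to 1.50). Group means were estimated from all 16 libraries together in edgeR 4.0.16 (glmQLFit with robust set, glmQLFTest), with Benjamini-Hochberg adjustment over the 11809 tested genes in each of 5 contrasts. SE is the size of the log2 fold change divided by the square root of F. Genes beyond the 10 were named by a rule: each gene of the 6 other Wnt lists called in any contrast (at most 6 per list), the 3 genes most correlated with *Axin2*, *Lgr5* and *Sox9*, markers that move with a target gene, and 5 TNF-induced genes. The target genes and lists were chosen with earlier results of these data known. Library totals of 7286307 to 15832111 counts and the spread of 4 libraries limit the precision. The closest pair of libraries in a group (DEX+TNF 1 and 2) still differed beyond counting noise (chi-square 8.78 per degree of freedom), and all were counted as separate. Alternatives were DESeq2 1.42.0, other factors and filters, a stricter threshold, only the groups compared, the replicate block and leaving out each library.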

Additional observations from a re-analysis of the deposited data

Results flagged for a closer look

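In 4 of the 40 combinations of a target gene and a group, 1 library lay farther from the others than Dixon's 95% criterion allows, where chance gives about 1 in 20 groups (5%). All 4 were library 4 of their group. *Lgr5* was 27.7 normalized CPM in DEX+TNF 4, against 12.9 to 15.4 in the other DEX+TNF libraries. *Ascl2* was 6.48 normalized CPM in the same library, against 0.65 to 1.53. *Cd44* was 45.9 normalized CPM in PBS+TNF 4, against 15.4 to 18.9. *Cd44* was also 14.1 normalized CPM in DEX+PBS 4, against 3.44 to 5.06. The stem cell and cell cycle marker sums of these 3 libraries were the highest of their groups, and their part in these values was not tested.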

How the results depend on the processing

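Of the alternatives, the number called for PBS+TNF versus PBS+PBS (1476 genes) fell to 570 at an adjusted p under 0.01 and ran from 899 (without PBS+PBS 1; 957 without PBS+PBS 2) to 1685 when single libraries were left out. It was 2131 without both DEX+TNF 3 and 4. In DEX+PBS versus PBS+PBS (1 gene) DESeq2 called 7, the fit without both libraries 2, and leaving out single libraries gave 0 to 2. In DEX+TNF versus PBS+TNF (40 genes) the count was 0 at the stricter threshold, 274 with DESeq2, 0 with only the libraries of these groups, 16 with the replicate block, 0 without both libraries and 0 to 105 without single libraries. In DEX+TNF versus DEX+PBS (40 genes) it was 0 at the stricter threshold, 6 with no low-count filter, 259 with DESeq2, 0 with only the libraries of these groups, 0 with the replicate block, 1283 without both libraries and 0 to 359 without single libraries (359 when DEX+TNF 3 was dropped, 230 when DEX+TNF 4 was, and 0 for each other library). For the interaction (0 genes) DESeq2 called 9, and single libraries gave 0 to 1. The cause was not tested, beyond the fewer libraries in each fit.

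No call of a target or pathway gene changed sign. Signs of uncalled estimates turned as follows, each as a log2 range over fits without single libraries. In PBS+TNF versus PBS+PBS, *Ephb3* ran from -0.24 to 0.16. In DEX+PBS versus PBS+PBS, *Axin2* ran from -0.22 to 0.17, *Znrf3* from -0.016 to 0.38, *Sox9* from -0.028 to 0.41, *Ephb3* from -0.33 to 0.081, *Cd44* from -0.80 to 0.30 and *Myc* from -0.11 to 0.18. In DEX+TNF versus PBS+TNF, *Axin2* ran from -0.13 to 0.97, *Ascl2* from -0.22 to 1.37, *Sox9* from -0.35 to 0.099, *Ephb2* from -0.31 to 0.23 and *Ephb3* from -0.18 to 0.28. In DEX+TNF versus DEX+PBS, *Rnf43* ran from -0.19 to 0.063, *Ascl2* from -0.28 to 1.44, *Ephb2* from -0.034 to 0.24, *Ephb3* from -0.11 to 0.35 and *Myc* from -0.018 to 0.29. For the interaction, *Axin2* ran from -0.084 to 1.01 and *Ephb3* from -0.090 to 0.38. Without both DEX+TNF 3 and 4, DEX+TNF versus PBS+TNF gave -0.72 for *Axin2*, -0.66 for *Ascl2*, 0.31 for *Sox9* and 0.14 for *Ephb2*. The same fit gave -0.74 for *Ascl2* and -0.061 for *Myc* in DEX+TNF versus DEX+PBS, and -0.68 for *Axin2* and 0.11 for *Sox9* in the interaction.

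Replicate numbers were not taken as pairs, since the correlation of same-numbered libraries' deviations from the group means was over 0.1 in 12 of 24 pairs (-0.365 to 0.504). It was over 0.1 in all 6 pairs of number 2 (0.153 to 0.412), and in 1, 2 and 3 of 6 for numbers 1, 3 and 4, and the own number was the best match in 21 of 48 checks. With the replicate block, *Ephb3* in PBS+TNF versus PBS+PBS became 0.014, no target gene gained or lost a call, and *Nkd1* lost its call in DEX+TNF versus PBS+TNF (adjusted p = 0.0553). *Ascl2* gave no value at a mean of at least 5 CPM, and the interaction uses all groups, so that no fit with fewer groups was made for it.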
